A study of Mus musculus with 7 samples.

Results

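A-class ephrins and EphA receptors were measured by RNA-sequencing in femora, flushed of marrow, from female C57BL/6 mice aged 12 weeks. The genes were Efna1, Efna2, Efna4 and Efna5, which encode A-class ephrins, and Epha1, Epha2, Epha3 and Epha7, which encode EphA receptors. They were chosen by name, as 8 of the 27179 genes in the count table. The 7 libraries came from 3 Dmp1Cre.EfnB2f/f mice, which carry 2 floxed Efnb2 alleles and Dmp1Cre, and from 4 Dmp1Cre mice, which carry the same Cre and no floxed allele. Each library came from 1 mouse. Cre was driven by a Dmp1 promoter fragment that is active in late osteoblasts and osteocytes, so other cells of the femur keep Efnb2. Controls were littermates or cousins, and the 7 mice came from 4 parent crosses. Dmp1Cre.EfnB2f/f mice 1 and 2 came from cross 76x78, controls 1 and 2 from 85x87 and control 4 from 84x86. Dmp1Cre.EfnB2f/f mouse 3 and control 3 came from 47x42, the only cross with both genotypes. Differences of genotype and of cross therefore cannot be fully told apart.

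Ephrins are cell-surface ligands of the Eph receptor tyrosine kinases, and contact between cells engages both sides. A-class ephrins are tethered to the membrane by a glycosylphosphatidylinositol anchor and mainly bind EphA receptors, whereas B-class ephrins, such as ephrinB2, span the membrane and mainly bind EphB receptors and EphA4. In bone, ephrinA2 and EphA2 are known from contacts between osteoclast and osteoblast precursors, and ephrinB2 and EphB4 from contacts between osteoclasts and osteoblasts and among osteoblasts and osteocytes.

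The sequences just before the start of 3 members are shown because these genes turned out to be the most abundant members, and because Epha2 and Efna1 ranked the 7 libraries identically whereas Epha1 did not. All 8 members had a promoter entry in RefSeq (GRCm38.p6), with 10 start sites between them. Each line holds the 250 bases before the start, 5′ to 3′ on the strand of the gene. Capitals mark the GC box GGGCGG, searched on both strands, so that it also reads CCGCCC.
Epha2: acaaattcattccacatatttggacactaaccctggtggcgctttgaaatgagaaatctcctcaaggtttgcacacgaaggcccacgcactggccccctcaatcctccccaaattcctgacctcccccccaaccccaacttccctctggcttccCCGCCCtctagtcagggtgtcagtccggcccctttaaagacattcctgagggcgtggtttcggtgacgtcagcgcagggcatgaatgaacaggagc
Efna1: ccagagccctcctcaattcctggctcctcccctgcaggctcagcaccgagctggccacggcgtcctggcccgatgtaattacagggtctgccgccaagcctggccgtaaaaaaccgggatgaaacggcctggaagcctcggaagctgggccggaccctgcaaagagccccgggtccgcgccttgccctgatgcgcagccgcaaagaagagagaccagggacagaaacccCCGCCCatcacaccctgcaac
Epha1: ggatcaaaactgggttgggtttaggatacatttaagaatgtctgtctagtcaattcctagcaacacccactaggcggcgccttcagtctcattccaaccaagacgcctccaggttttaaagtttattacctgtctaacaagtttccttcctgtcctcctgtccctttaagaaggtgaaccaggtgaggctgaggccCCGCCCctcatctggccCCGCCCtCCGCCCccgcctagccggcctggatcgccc
The Epha2 window lies at chr4:141300971-141301220 on the plus strand, that of Efna1 at chr3:89280952-89281201 on the minus strand, and that of Epha1 at chr6:42373269-42373518 on the minus strand. The bases just after the Epha2 start were not found in a GENCODE transcript of Epha2, whereas those after the Efna1 and Epha1 starts were found in theirs. Efna1 has a second start in RefSeq, and the window shown is that of the upstream one, at the outer end of the RefSeq gene. The Epha1 start lies inside the RefSeq gene, whose outer end is at chr6:42373314. Its GC boxes 37 and 30 bases before the start therefore lie within the span of the gene. Epha2 and this Efna1 window each held 1 GC box, 96 and 21 bases before the start, the second Efna1 window held 2, 66 and 55 bases before its start, and Epha1 held 3, the nearest 30 bases before it. A GC box was found in 6 of the 8 members and in 32.7% of all 32851 mouse windows of this length. The TATA box TATAAA, which 12.4% of all windows held on either strand, and the E box CACGTG, held by 6.02%, matched in 0 of the 8 members. The CCAAT box CCAAT was present in 2 members, Efna4 and Epha7, against 33.9% of all windows, and the RUNX core TGTGGT in 1, Efna4, against 14.1%. The members' windows held between 7 CpG pairs, in Efna4, and 32, in Efna5, against a median of 6 over all windows. These matches describe letters and were not linked to any measurement of binding.

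Libraries held 17245556 to 22075778 counted reads. Osteocyte and osteoblast markers were present in every library, with all 10 of 10 in each list tested, and the neutrophil marker sum was 11524 to 19086 counts per 1000000 reads (CPM), so RNA of blood-forming cells remained after flushing. On the first principal component (53.9% of the variance), controls 4 and 1 scored 68.7 and 43.8, and the other 5 libraries lay between -41.4 and -1.79. Beside all comparisons of genotype below, some markers differed at an unadjusted p under 0.05 in edgeR's quasi-likelihood test, as did 9.66% of all genes. In the Dmp1Cre.EfnB2f/f-labelled libraries, 4 of 10 skeletal muscle, 3 of 10 endothelial and 3 of 5 Schwann cell markers were higher. So were 1 of 8 pericyte and stromal and 1 of 8 B cell markers. There 5 of 8 erythroid markers and 1 of 8 neutrophil markers were lower. The erythroid list holds Klf1 and Tspo2, which the paper ranks among its top genes, both lower, in these same samples. In whole tissue, a larger number of cells of a type and more RNA per cell cannot be told apart.

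In whole femur, the read counts of the targeted gene went against its label. Efnb2, which encodes ephrinB2, was read 322, 239 and 224 times in the Dmp1Cre.EfnB2f/f-labelled libraries 1 to 3 and 164, 139, 110 and 117 times in controls 1 to 4. Scaled by the trimmed mean of M-values (TMM), the mean was 13.6 ± 3.05 CPM (SD, n = 3) there and 6.95 ± 1.02 CPM (SD, n = 4) in controls, without overlap of the groups. The log2 fold change was 0.96 (SE 0.21), with an edgeR p of 0.0016 and a Benjamini-Hochberg adjusted p of 0.51. DESeq2 (0.94, adjusted p = 0.034) and limma without a day block (0.76, adjusted p = 0.016) called it, and over the 12 possible day pairs described below the limma value ran from 0.68 (adjusted p = 0.977) to 1.14 (adjusted p = 0.0063). The two-sided exact permutation test gave 0.0286, the smallest p that 35 assignments of 3 and 4 libraries allow. The counts cover all exons and all cells of the sample, and which exons were read was not analysed here. The paper reports PCR of the targeted region in osteocytes sorted from younger mice. There Efnb2 was effectively targeted in osteocytes, and non-osteocytic cells retained it. The summed CPM of the 10 endothelial markers, from cells known to express Efnb2 and not targeted by this Cre, was 1082 to 1188 in the Dmp1Cre.EfnB2f/f-labelled libraries and 880 to 1593 in controls. Its part in the Efnb2 level was not tested.

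All 8 A-class members were detected in all 7 libraries and passed the filter on low counts, a minimum of 0.65 CPM in 3 or more libraries. Per length, as reads per kilobase and per 1000000 reads (RPKM, with TMM-scaled library sizes), their mean levels spanned from 0.224 to 12.0. Epha2 was the highest of the 8 and, by mean RPKM, of all 22 Eph and ephrin genes in the table.

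Among the receptors, Epha2, known for binding ephrinA1 and for roles in epithelial, endothelial and bone cells, was at 12.6, 11.0 and 11.1 RPKM in the Dmp1Cre.EfnB2f/f-labelled libraries and at 19.7, 9.62, 7.44 and 12.5 RPKM in controls 1 to 4. Control 1 stood highest and control 3 lowest. Over all 7 libraries the level was 12.0 ± 3.83 RPKM (SD, n = 7), which lay above 60.1% of the genes tested. Epha1, a receptor known from epithelia and T cells, was at 6.35, 5.48 and 4.23 RPKM in the Dmp1Cre.EfnB2f/f-labelled libraries and at 5.12, 7.10, 5.45 and 4.31 RPKM in controls. Its mean was 5.43 ± 1.03 RPKM (SD, n = 7), and it varied least of the 8, with a highest over lowest ratio of 1.68. Epha3, a receptor known from axon guidance and from stromal cells, was at 0.572, 0.931 and 1.41 RPKM and, in controls, at 1.61, 0.600, 0.434 and 0.377 RPKM, a 4.27-fold range. Epha7, a receptor known from neural development, was the lowest member at 0.224 ± 0.0642 RPKM (SD, n = 7), with single libraries between 0.0974 and 0.292 RPKM. Epha2 made up 63.9% ± 7.49 (SD, n = 7) of the summed RPKM of the 4 receptors and Epha1 30.4% ± 8.03.

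Among the ligands, Efna1, the main known partner of EphA2, was at 6.05, 4.54 and 4.64 RPKM in the Dmp1Cre.EfnB2f/f-labelled libraries and at 7.32, 3.40, 3.15 and 4.91 RPKM in controls 1 to 4. It accounted for 70.0% ± 4.78 (SD, n = 7) of the summed RPKM of the 4 ligands. Efna5, which encodes a ligand that also binds EphB2, followed with 1.10, 1.24 and 1.84 RPKM in the Dmp1Cre.EfnB2f/f-labelled libraries and 1.61, 1.12, 0.890 and 1.11 RPKM in controls, or 18.8% ± 3.83 of the ligand sum. Efna4 averaged 0.510 ± 0.323 RPKM (SD, n = 7). Efna2, the ligand known from osteoclasts, averaged 0.288 ± 0.100 RPKM (SD, n = 7) and rested on 6 to 19 reads a library. For the lowest of these, 6 reads in control 3, the exact 95% Poisson interval ran from 2.2 to 13.1 reads, which covers counting error only. Highest over lowest CPM was 2.80 for Efna2 and 2.65 for Epha2, but the variance of the Efna2 counts was only 1.42 times that of counting alone.

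**Figure D1:**
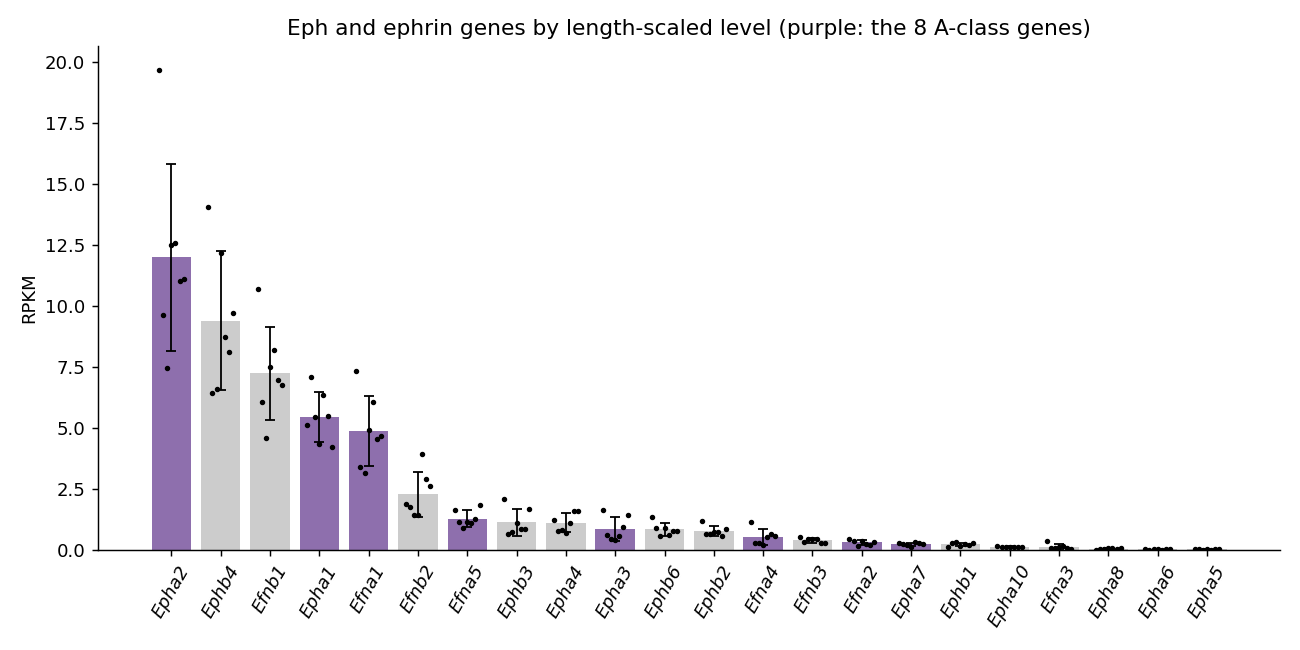
Bars show the mean RPKM of the 22 Eph and ephrin genes over 7 libraries, with SD as error bars and 1 point for each library; purple bars are the 8 A-class members. Epha2 has the tallest bar, at 12.0 RPKM, and Efna1 and Epha1 are the only other members above 2 RPKM.

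The order of the members by mean RPKM was Epha2, Epha1, Efna1, Efna5, Epha3, Efna4, Efna2 and Epha7. Epha2 lay above Epha1 in 7 of 7 libraries with ranges that did not overlap, and Efna1 lay above Efna5 in the same way. Epha1 was above Efna1 in only 4 of 7 libraries, Efna4 above Efna2 in 5 of 7 and Efna2 above Epha7 in 4 of 7, so these neighbours did not differ beyond their spread. Efna5 was above Epha3 and Epha3 above Efna4 in 7 of 7 libraries, although the ranges over libraries overlapped. The 4 EphA receptors summed to 18.5 ± 4.06 RPKM (SD, n = 7) and the 4 A-class ligands to 6.93 ± 1.97 RPKM, beside 12.3 ± 3.63 RPKM for the 5 EphB receptors and 9.88 ± 2.35 RPKM for the 3 B-class ephrins. Ephb4, the B-class receptor with the highest level, was at 9.40 ± 2.85 RPKM.

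The comparison of genotypes asks whether the A-class genes differed in bone with the floxed Efnb2 alleles. None of the 8 passed the test. The edgeR quasi-likelihood test, fitted to 15077 genes with p adjusted over all of them, called 0 of 8 members at an adjusted p under 0.05, beside 0% of all genes tested. This 0% belongs to edgeR. From these same samples the paper reports many genes under that threshold, some higher and some lower. Its limma model also took account of collection day. At an unadjusted p under 0.05 the edgeR test picked out 0 of 8 members, beside 9.66% of all genes. The ranges of the groups overlapped for 8 of 8 members, whereas 11.3% of all genes had groups that did not overlap. The two-sided exact permutation test on single members gave p between 0.371 (Epha7) and 0.971 (Epha2). The fitted change was above 0 for 5 of 8 members, beside 51.3% of all genes, and its median was 0.17 on the log2 scale beside 0.01 for all genes. With scaling by library size only it was above 0 for 7 of 8 members, beside 59.9% of all genes, which then had a median of 0.09.

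For the ligands, the values by library show how far the genotypes overlapped. Efna1 was at 9.94, 7.46 and 7.62 CPM in the Dmp1Cre.EfnB2f/f-labelled libraries and at 12.0, 5.59, 5.18 and 8.07 CPM in controls 1 to 4. The 3 libraries labelled Dmp1Cre.EfnB2f/f fell inside the range of the controls. The log2 fold change was 0.11 (SE 0.31; 95% interval -0.60 to 0.82; edgeR adjusted p = 0.878). Efna5 was at 5.76, 6.52 and 9.68 CPM in the Dmp1Cre.EfnB2f/f-labelled libraries and at 8.47, 5.91, 4.68 and 5.84 CPM in controls. Its highest value was in Dmp1Cre.EfnB2f/f-labelled library 3, the next in control 1, and the log2 fold change was 0.23 (SE 0.27; 95% interval -0.39 to 0.85; edgeR adjusted p = 0.708).

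Efna4 was read 15, 19 and 18 times in the Dmp1Cre.EfnB2f/f-labelled libraries and 37, 8, 8 and 6 times in controls 1 to 4. Control 1 lay above all other libraries and the other 3 controls lay below all of them. With all libraries the log2 fold change was 0.23 (SE 0.60; 95% interval -1.13 to 1.59; edgeR adjusted p = 0.865). Without control 1 it was 1.17 (SE 0.33), with an unadjusted edgeR p of 0.0082 and an adjusted p of 0.369. That fit gave an unadjusted p under 0.05 for 1688 of its 14991 genes. Without control 4 the log2 fold change of Efna4 was -0.027. Efna2 was read 9, 8 and 13 times in the Dmp1Cre.EfnB2f/f-labelled libraries and 19, 14, 6 and 14 times in controls. Its log2 fold change was -0.42 (SE 0.41; 95% interval -1.34 to 0.51; edgeR adjusted p = 0.656), and a level 2-fold lower lay inside this interval. The exons of Efna4 share 168 bases with 4731419I09Rik on the other strand, and whether counting used strand is not given in the sources used here.

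**Figure D2:**
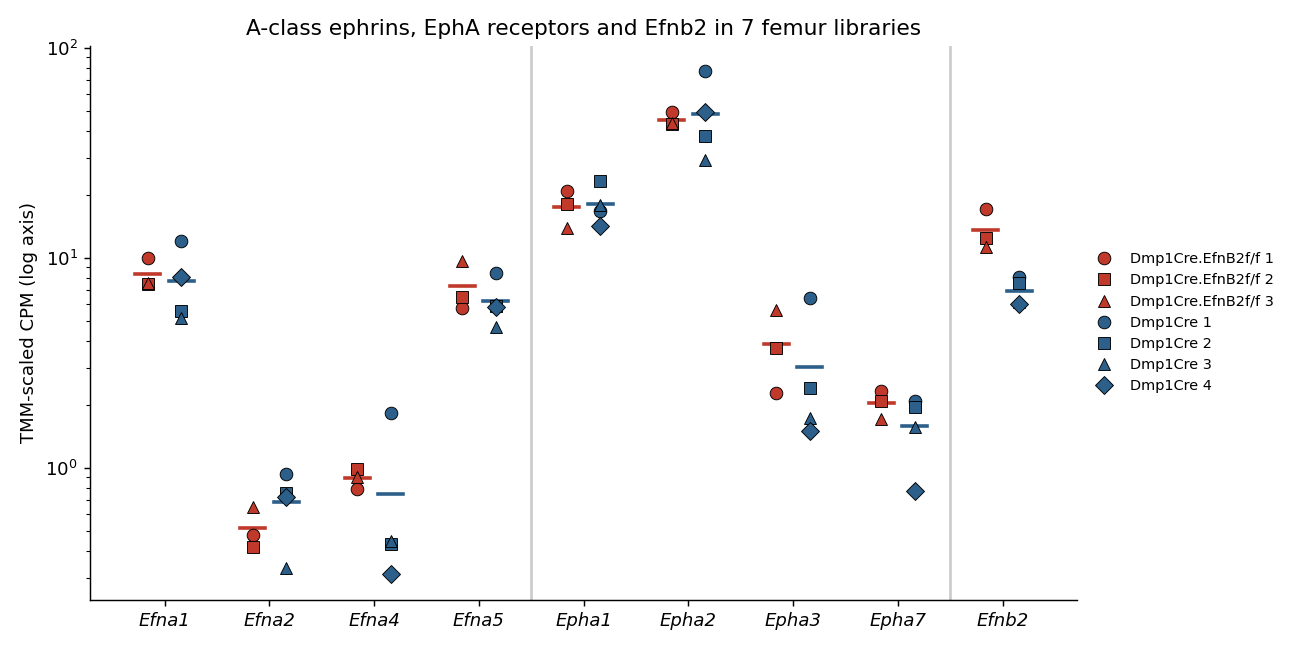
Each point is the TMM-scaled CPM of 1 library on a log axis, red for the 3 libraries labelled Dmp1Cre.EfnB2f/f and blue for the 4 Dmp1Cre controls, and short lines are group means. Red and blue points overlap for each of the 8 A-class members and do not overlap for Efnb2, where all red points lie above the blue ones.

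For the receptors, Epha2 was at 49.4, 43.4 and 43.6 CPM in the Dmp1Cre.EfnB2f/f-labelled libraries and at 77.4, 37.8, 29.2 and 49.2 CPM in controls 1 to 4. The controls spread on both sides of the Dmp1Cre.EfnB2f/f-labelled libraries, with SDs of 21.0 (n = 4) and 3.42 CPM (n = 3). The log2 fold change was -0.09 (SE 0.31; 95% interval -0.79 to 0.60; edgeR adjusted p = 0.898), and its sign turned, to 0.01, when libraries were scaled by their size only and, to 0.23, without control 1. Epha1 was at 20.8, 17.9 and 13.8 CPM in the Dmp1Cre.EfnB2f/f-labelled libraries and at 16.7, 23.2, 17.8 and 14.1 CPM in controls. The 2 groups covered nearly the same range, and the log2 fold change was -0.04 (SE 0.22; 95% interval -0.54 to 0.47; edgeR adjusted p = 0.948), or 0.03 with scaling by library size only.

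Epha3 was at 2.27, 3.70 and 5.62 CPM in the Dmp1Cre.EfnB2f/f-labelled libraries and at 6.40, 2.39, 1.73 and 1.50 CPM in controls. Control 1 was again the highest library, the other 3 controls were among the 4 lowest, and the log2 fold change was 0.36 (SE 0.54; 95% interval -0.86 to 1.58; edgeR adjusted p = 0.768). Without control 1 it was 1.05 (SE 0.38), with an unadjusted edgeR p of 0.0251 and an adjusted p of 0.406. In that fit 1688 of 14991 genes had an unadjusted p under 0.05. Without Dmp1Cre.EfnB2f/f-labelled library 3 the log2 fold change of Epha3 was -0.011. Epha7 was at 2.33, 2.09 and 1.70 CPM in the Dmp1Cre.EfnB2f/f-labelled libraries and at 2.07, 1.95, 1.56 and 0.776 CPM in controls, with control 4 well below the rest. Its log2 fold change was 0.36 (SE 0.35; 95% interval -0.45 to 1.16; edgeR adjusted p = 0.659), and without control 4 it was 0.13.

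**Figure D3:**
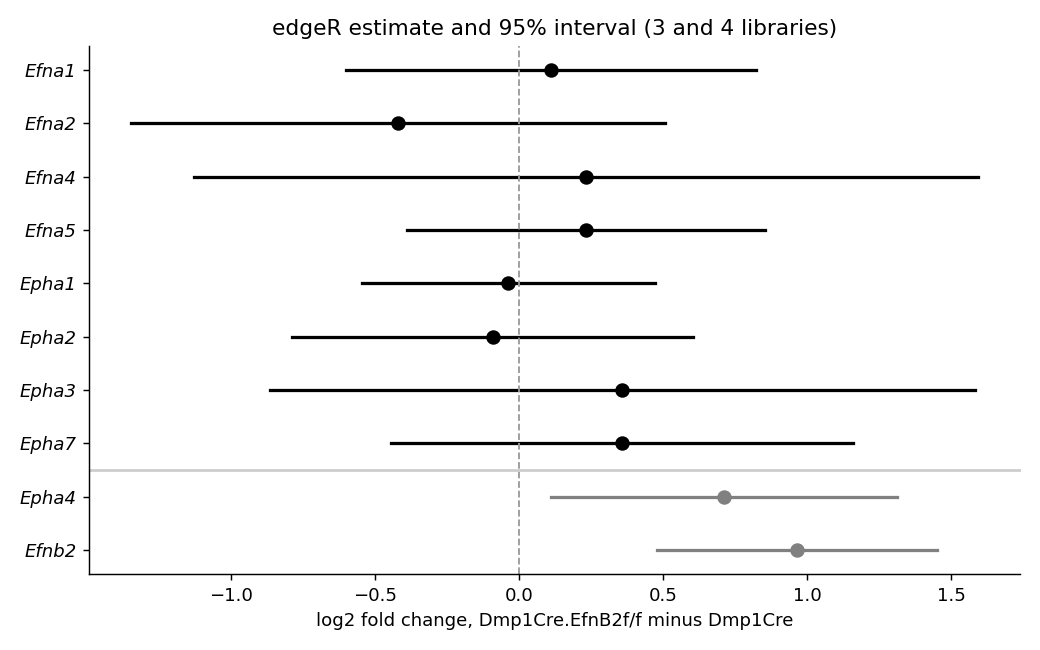
Points are edgeR log2 fold changes, Dmp1Cre.EfnB2f/f minus Dmp1Cre, and lines their 95% intervals, black for the 8 members and grey for Epha4 and Efnb2. Each of the 8 black intervals includes 0, and those of Epha4 (0.11 to 1.31) and Efnb2 (0.48 to 1.45), which are not adjusted for the number of genes, do not.

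The limma pipeline of the study, without its block for the day of collection, called 0 of 8 members, beside 15.0% of all genes. The day is in no label, so the fit of the paper could not be repeated exactly. Over the 12 possible pairs of mice for the second day, a member passed with 1 pair, Dmp1Cre.EfnB2f/f-labelled library 3 with control 4. In sample order, this pair comes last in the series. With it, Efna1 had a log2 fold change of 0.58 and a limma adjusted p of 0.0278. With that pair limma called 32.8% of all genes. DESeq2 called 0 of 8 members, beside 0.478% of all genes.

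The exons of Epha1 share 236 bases with Zyx, which encodes the focal adhesion protein zyxin and lies on the other strand. Zyx was at 236 to 419 CPM and was highest in control 4, where Epha1 was second lowest at 14.1 CPM. Epha1 had between 3.37 reads per 100 Zyx reads, in control 4, and 8.26, in Dmp1Cre.EfnB2f/f-labelled library 1. How many of the Epha1 counts come from the shared bases was not tested. The span of Epha1 also overlaps 2010310C07Rik, which was read 10 to 36 times, most often in Dmp1Cre.EfnB2f/f-labelled library 2 (36 reads) and control 2 (35 reads).

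For 8 of 8 members the difference between the group means was smaller than the SD of the 4 controls. Control 1 was the highest library for 5 of 8 members (Efna1, Efna2, Efna4, Epha2 and Epha3) and lay above the mean of the 7 libraries for 7 of 8. Control 3 was the lowest for 4 members and control 4 for 3. On the log2 scale, the median deviation of the 8 members from their means was 0.67 in control 1 and -0.60 in control 3, and between -0.23 and 0.16 in the other 5 libraries.

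Epha2 and Efna1 ordered the 7 libraries identically, with a Spearman rank correlation of 1.00 and a Pearson r of 0.94 between their log2 CPM (n = 7). Without controls 1 and 3, the 2 libraries farthest from the Efna1 median, r was 0.93 (n = 5). Efna5 and Epha3 had r = 0.90 and a rank correlation of 0.86, with r = 0.66 without the 2 farthest libraries, and Efna4 and Epha3 had r = 0.89 and a rank correlation of 0.86, then r = 0.75. Epha1 stood apart, with negative r to Epha2 (-0.23), Efna1 (-0.24) and Efna5 (-0.48), and r = 0.61 with Epha7. Without the 2 farthest libraries these were -0.17, -0.29, 0.07 and 0.87, so the negative r with Efna5 rests on those libraries. These values describe 28 pairs over the same 7 libraries, which also differed in marker levels and depth, and carry no test.

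**Figure D4:**
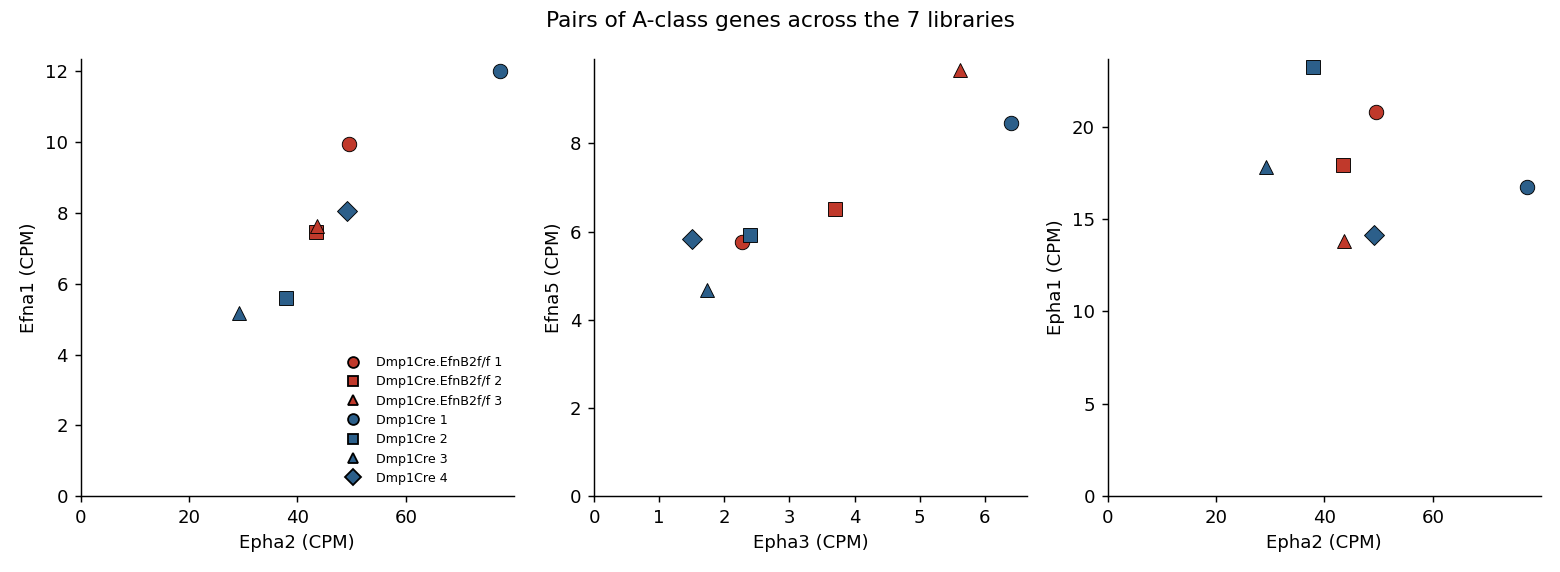
Each panel plots the CPM of 2 members against each other, 1 point for each of the 7 libraries, red for those labelled Dmp1Cre.EfnB2f/f and blue for Dmp1Cre controls. Efna1 rises with Epha2 over all points (r = 0.94 on the log2 scale) and Efna5 with Epha3 (r = 0.90), whereas Epha1 does not rise with Epha2 (r = -0.23).

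Cell type markers varied between the same libraries. In control 1 the summed CPM of the 10 osteocyte markers was 961, against 435 to 738 in the other 6 libraries, and that of the 10 osteoblast markers was 68774, against 13848 to 33997. The 7 osteoclast markers summed to 1180 CPM in control 1 and to 195 to 614 CPM elsewhere, the 8 chondrocyte markers to 1071 against 158 to 565 CPM, and the 7 adipocyte markers to 555 against 146 to 424 CPM. Matn1 in the chondrocyte list and Lep in the adipocyte list were each at 0 in 1 library. None of these 5 lists had a tested gene with an unadjusted p under 0.05 between genotypes in edgeR. The part of bone, cartilage or fat cell content in the levels of the members was not tested.

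Across the 7 libraries, the median r of the osteocyte markers was 0.89 with Efna1 and 0.87 with Epha2. Single osteocyte markers ran from -0.63 to 0.97 with Efna1 and from -0.78 to 0.94 with Epha2. The osteoclast markers had a median r of 0.77 with Efna1 and 0.84 with Epha2. Other lists were also high, with osteoblast markers at 0.73 with Efna1 and 0.81 with Epha2. Adipocyte markers were at 0.72 and 0.64, chondrocyte markers at 0.64 and 0.70 and macrophage markers at 0.57 and 0.73. All genes tested had a median r of 0.03 with Efna1. The r values with markers were not computed without control 1. It was the highest library for Efna1, Epha2 and the osteocyte, osteoblast, osteoclast, chondrocyte and adipocyte marker sums. For Efna4 the median r was 0.82 with adipocyte markers (single markers 0.33 to 0.91). It was 0.75 with osteocyte (-0.40 to 0.84) and 0.74 with chondrocyte markers (0.51 to 0.87). For Epha3 it was 0.75 with chondrocyte (single markers 0.24 to 0.85) and 0.71 with adipocyte markers (0.03 to 0.75). For Efna5 it was 0.71 with chondrocyte (-0.17 to 0.79) and 0.68 with osteoclast markers (0.45 to 0.73). For Epha1 the highest median r was with the 5 T cell markers (0.67, single markers 0.40 to 0.92). That with the osteoblast markers was -0.55 (single markers -0.66 to 0.65). Epha7 had its lowest median r with the erythroid markers (-0.84), whose median was highest in control 4. Efna2, on 6 to 19 reads, had median r values of 0.71 with osteoblast (0.16 to 0.88) and 0.66 with macrophage markers (-0.08 to 0.85). Its median r was 0.65 with osteoclast (0.28 to 0.83) and -0.79 with skeletal muscle markers (-0.83 to -0.07).

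**Figure D5:**
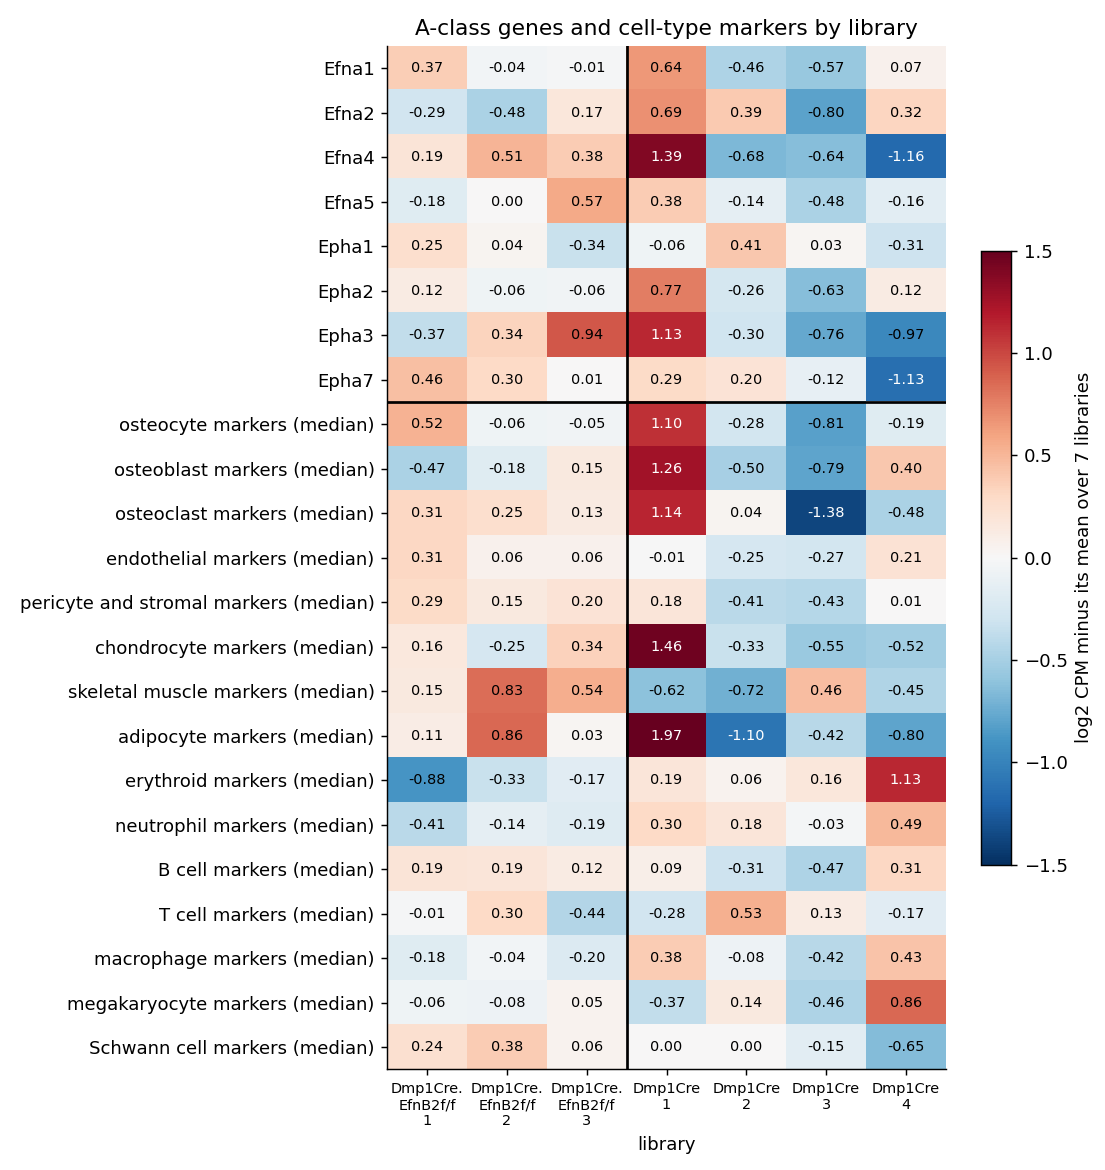
Each cell gives log2 CPM minus its mean over the 7 libraries, for the 8 members above the line and, below it, as the median over each of 15 cell type marker lists; columns are libraries. The column of control 1 is above its mean for 7 of 8 members and for the osteocyte (1.10), osteoblast (1.26), osteoclast (1.14), chondrocyte (1.46) and adipocyte (1.97) lists, and Epha1 differs there with -0.06.

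The genes whose log2 CPM was most like that of a member, by Pearson r over 7 libraries, were Adamtsl2, Aif1l and Rab11fip5 for Efna1 (r = 0.99, 0.98 and 0.98) and Ptgis, Tmem159 and Mdfi for Epha2 (all 0.99). For Efna4 they were Clip3, Cpe and Dcn, which encodes the matrix proteoglycan decorin (0.99, 0.98 and 0.98), and for Epha3 Sfrp2, Sertad4 and Miat (0.98, 0.98 and 0.97). For Efna5 they were Rhbdl3, Adam12 and Capn6 (0.99, 0.97 and 0.97); Adam12 is a metalloprotease also on the list of pathway genes. For Epha1 they included Tlr6 and Inpp1 (both 0.96). For Efna2 they were Prcp, Mir3109 and Asic1 (0.97, 0.97 and 0.96) and for Epha7 4930556M19Rik, 4930488L21Rik and Fam46a (all 0.99 after rounding). With the 2 libraries farthest from the median of the member left out, 0 of the 3 genes stayed among the top 3 for each of the 8 members.

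Of the other A-class genes, Efna3, Epha5, Epha6 and Epha8 fell under the filter, with 0 to 9 reads a library. Epha10 was read 11 to 17 times and was tested, without a call. Epha4, a receptor for ephrins of both classes and so also for ephrinB2, was at 6.77, 10.1 and 9.93 CPM in the Dmp1Cre.EfnB2f/f-labelled libraries and at 7.68, 4.72, 5.18 and 4.24 CPM in controls. Only control 1 reached into the range of the Dmp1Cre.EfnB2f/f-labelled libraries. The log2 fold change was 0.71 (SE 0.26), with an edgeR p of 0.0255 and an adjusted p of 0.51. Limma without a day block gave 0.80 with an adjusted p of 0.0196, where it called 15.0% of all genes. DESeq2 called neither Epha4 nor Epha10, with a smallest adjusted p of 0.316. Limma with Dmp1Cre.EfnB2f/f-labelled library 3 and control 4 as the day pair also called neither, with a smallest adjusted p of 0.141.

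Genes that act with Eph receptors and ephrins were listed in 6 groups, and 49 of the 51 were tested. The edgeR test called 0 of 49, and 2 of 49 had an unadjusted p under 0.05, both higher and both kinases, beside 9.66% of all genes. The median log2 fold change was 0.06, with 27 above and 22 below 0. Ptk2, which encodes focal adhesion kinase, had means of 42.7 ± 1.59 CPM (SD, n = 3) and 28.7 ± 4.79 CPM (SD, n = 4) in groups that did not overlap. Its log2 fold change was 0.57 (SE 0.17), with an edgeR p of 0.0087 and an adjusted p of 0.51. Yes1, a Src family kinase, was at 12.8 ± 2.88 against 7.39 ± 1.94 CPM, with overlapping groups. Its log2 fold change was 0.80 (SE 0.26), with an edgeR p of 0.0148 and an adjusted p of 0.51. Limma without a day block called 9 of the 49, 6 higher and 3 lower, where it called 15.0% of all genes, and DESeq2 called 0. By group, 7 of 10 kinases, 7 of 14 adaptors, 1 of 5 phosphatases, 1 of 3 proteases and 2 of 3 co-receptors of A-class ephrins had a fitted change above 0. Adam10, the protease known for releasing A-class ephrins, was at 152 ± 9.70 against 157 ± 38.2 CPM, a log2 fold change of -0.05 (SE 0.21; edgeR adjusted p = 0.92).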

How the data were processed

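RNA from marrow-flushed femora of 7 mice was sequenced as paired ends. The authors mapped reads to mm10 with Rsubread and deposited counts per gene from featureCounts with its inbuilt annotation, and the processing notes also name bcl2fastq 2.17.1.14. The table of the series equals the single deposited files. Genes had to reach 0.65 CPM in 3 or more libraries, and immunoglobulin, ribosomal, predicted, pseudo, Y-linked and unmatched genes and Xist were left out, which left 15077. Dmp1Cre.EfnB2f/f was compared with Dmp1Cre by edgeR 4.0.16 (quasi-likelihood, TMM, robust; Benjamini-Hochberg adjustment, threshold 0.05), with limma 3.58.1 and DESeq2 1.42.0 as alternatives and SciPy 1.17.1 for exact permutation tests. Scripts were tested on simulated data. Levels used TMM-scaled library sizes, RPKM the gene lengths in the files, and log2 CPM a prior count of 2. Promoter windows came from RefSeq and exon overlaps from GENCODE on GRCm38.

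The members and gene lists were chosen with earlier results of these data known. Named genes were the 8 members, Efnb2, related genes with an unadjusted p under 0.05, the B-class receptor of highest RPKM, the 3 genes most like each member, and overlapping genes. Adam10, Klf1, Tspo2 and the genes named within counts of 5 or fewer were added after their values were seen. Replicates are single mice, so p-values measure the spread between mice and libraries together. The main test treated mice of the same parent cross as independent. 1 of the genes most like a member and 1 group of the pathway list are not reported here.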

Additional observations from a re-analysis of the deposited data

Results flagged for a closer look

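Efna4 in control 1, at 1.82 CPM, lay far from the other 3 controls, which were at 0.434, 0.446 and 0.310 CPM. Its gap to the next control was 0.911 of the range of the 4 controls, above Dixon's 95% critical value of 0.829. About 1 in 20 groups passes this value by chance, and 11 genes were looked at in this way at both ends. The counts behind it were 37 reads in control 1 and 6 to 8 reads in the other controls.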

How the results depend on the processing

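Over all genes, DESeq2 called 72, limma without a day block 2261, and limma with a day block 0 to 4944 over the 12 pairs; the fit with the replicate block called 1, and leaving out each library called 0 to 2, where the edgeR fit called 0. The members had 1 call with the day pair of most calls and 0 under every other alternative tried. The pathway genes had 9 calls of 49 by limma without a day block, beside 15.0% of all genes. With a day block they had up to 15 of 49, with the pair that called 32.8% of all genes. Leaving out single libraries gave 0. The cause of these differences between tools was not tested.

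Of 139 alternative values of the members' log2 fold changes, 118 had the same sign and the same side of the threshold, 20 had the opposite sign, and 1 newly passed it (Efna1, 0.58, with 1 day pair). Of the 12 day-pair fits, only the lowest and the highest value of each member were counted among them. The lowest of the day pairs turned the sign of Efna1 (-0.093), Efna5 (-0.16), Epha3 (-0.17) and Epha7 (-0.091), and the highest that of Epha2 (0.39). Epha2 was also positive by limma without a day block (0.25), with library size only (0.0098), with the replicate block (0.043) and with a parent cross block (0.58), under which Efna2 was 0.95, Yes1 -0.0022 and the median of the members 0.76; that block rests on the 1 cross with both genotypes. Epha1 was 0.028 with library size only. Leaving out single libraries gave -0.037 to 0.41 for Efna1, -0.027 to 1.17 for Efna4, -0.020 to 0.42 for Efna5, -0.18 to 0.11 for Epha1, -0.27 to 0.23 for Epha2, -0.011 to 1.05 for Epha3, 0.13 to 0.51 for Epha7, -0.64 to -0.28 for Efna2 (in the 4 fits that kept it), 0.0089 to 0.42 for the median of the members and 0.0033 to 0.12 for that of the pathway genes. Epha7 was also 0.13 with the replicate block. The sign turned for Efna1 without Dmp1Cre.EfnB2f/f 1, control 2 or control 3, for Efna4 without control 4, for Efna5 and Epha3 without Dmp1Cre.EfnB2f/f 3, for Epha1 without Dmp1Cre.EfnB2f/f 3 or control 2, and for Epha2 without control 1. The pathway median was 0.14 with library size only, 0.020 with no filter on low counts, and 0.17 as the highest of the day pairs. A filter of 10 counts in every library removed Efna2 and Efna4. The order by RPKM was identical with any single library left out. It was also identical by TPM, which used the same counts and gene lengths and so could hardly change it. Gene lengths were not varied. With library size only, 8 of 8 levels moved by less than 1 SD.

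Replicate numbers do not pair the mice: the deviations of same-numbered libraries had r = -0.14, 0.06 and -0.42, and the replicate block changed no call of a member. Depth limits Efna2, with 6 to 19 reads a library. The widest 95% interval was that of Efna4, from -1.13 to 1.59 on the log2 scale, and its SE was 0.60 with control 1 and 0.33 without it.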
